A study of Macaca fascicularis with 2 samples.

Results

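The collagen genes were taken as every gene of the fetal ovary table whose name consists of COL, a number, A and a number, such as COL4A3. The rule found 41 of 18446 genes, and it used names only, no measured value. By the kind of protein they encode, 11 were fibrillar collagens, 6 were chains of the basement membrane collagen type IV, 5 were chains of type VI, 9 were fibril-associated collagens, and 10 belonged to short-chain, anchoring, transmembrane and other types. A further 7 genes have names that start with COL but do not follow the rule, and were left out.

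Collagens are the main structural proteins of the extracellular matrix, and each molecule is built from 3 chains wound around each other. Fibrillar collagens form the load-bearing fibres of connective tissue, type IV forms the sheet-like network of basement membranes under epithelia and around vessels, and type VI forms fine beaded filaments between cells and fibres. In the ovary, stromal cells lay down the fibres, while a basement membrane separates granulosa cells and their oocyte from the stroma.

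Whole ovaries of Macaca fascicularis fetuses were digested with a tissue dissociation kit and captured as single cells on the 10x Chromium 3′ system. There were 2 libraries, one per fetus and each made from its pair of ovaries, taken at E84 (embryonic day 84) and at E116. Transcripts were counted as unique molecular identifiers (UMIs). Cell barcodes end in 1 or 2, and nothing in the table or labels ties an ending to a stage. The cells were therefore treated as 1 pooled sample, without a comparison of stages. There was no replicate, and all intervals given are exact 95% intervals for counting error only, not for differences between animals.

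The table held 20967 cells and 148824177 UMIs. The 16292 cells with 200 to 3000 detected genes were retained, 8716 with barcodes ending in 1 (median 2470 UMIs) and 7576 ending in 2 (median 2964 UMIs), and 27 barcodes (0.258% of cells) occurred under both endings. The retained cells formed 19 clusters, built without the collagen genes and named from marker lists: 3961 stroma-like, 5287 granulosa-like, 757 ovarian surface epithelium-like, 123 pericyte-like, 342 endothelial-like, 4450 germ cell-like, 734 erythroid-like and 228 macrophage-like cells, with 410 cells unnamed. Highest in the class of that name were 9 of 11 stromal, 8 of 8 surface epithelial, 9 of 9 pericyte, 10 of 10 endothelial and 6 of 9 granulosa markers. The names were given from these same lists, so this is no independent check of them. Granulosa-like clusters 5, 6 and 7 each had only the required 3 granulosa markers, and cluster 5 also had 2 pericyte markers.

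The subgroups of stroma and granulosa followed the barcode ending. Of the stroma-like cells, cluster 2 (POSTN, RSPO3, LUM and OGN leading) held 1704 of 1730 cells from ending 1, whereas cluster 4 (WFDC1, C7, EMILIN1 and SPON2) held 1377 of 1380 and cluster 9 (GBP1, IFIT2 and IRF1) all 740 from ending 2. Of the granulosa-like cells, cluster 1 (SOST, CRYM and TOX3) held 1749 of 1773 cells from ending 1, and cluster 5 (LYPD1 and CBLN2) and cluster 7 (INHBB, INHA and CYP17A1) held 1277 of 1378 and 990 of 992 from ending 2. Cluster 7 also had a median of 48.6% mitochondrial UMIs. Stage, animal, library and subgroup therefore cannot be told apart in these clusters, and values are also given by barcode ending and in clusters built after integration of the endings.

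Collagen transcripts made up 0.739% of UMIs in retained cells, and COL1A1 and COL3A1 accounted for 71.5% of the 393668 collagen UMIs. Stroma-like cells devoted 2.12% of their UMIs to collagens (2.11 to 2.12%), with 2.31% under ending 1 and 1.99% under ending 2. The share was 0.685% in pericyte-like, 0.447% in surface epithelium-like, 0.266% in granulosa-like and 0.177% in endothelial-like cells. It was 0.101% in germ cell-like and 0.0413% in erythroid-like cells. The order of stroma, pericyte, surface epithelium, granulosa and endothelium was the same under each ending, with only 8 pericyte-like cells under ending 1. On the log2 scale the summed collagen level, in CPM (UMIs of a gene per 1000000 UMIs of the group), was 2.99 higher in stroma-like than in granulosa-like cells.

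**Figure D1:**
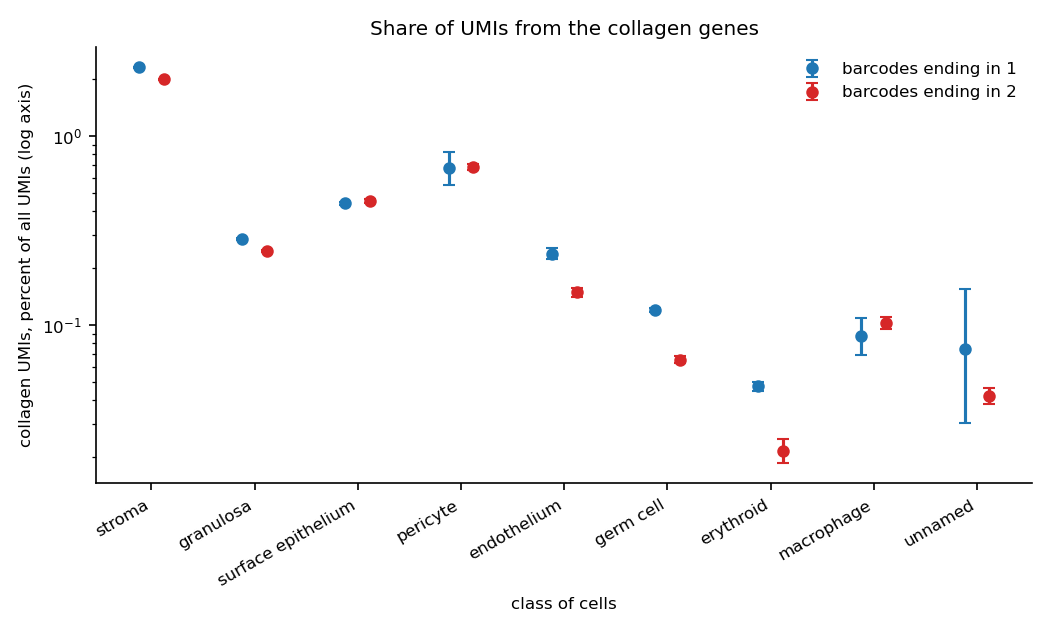
Collagen UMIs as a percent of all UMIs (log axis) in each class of cells, with barcodes ending in 1 in blue and in 2 in red. Points are pooled values and bars are exact 95% intervals for counting error; stroma-like cells stand highest under both endings, at 2.31% and 1.99%, and erythroid-like cells are at 0.0476% and 0.0216%.

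The kind of collagen also differed between classes. Fibrillar collagens made up 86.3% of collagen UMIs in stroma-like cells, 71.2% in surface epithelium-like cells, 67.2% in pericyte-like cells, 65.7% in granulosa-like cells and 32.7% in endothelial-like cells. Type IV chains made up 51.5% of collagen UMIs in endothelial-like, 19.9% in granulosa-like, 17.4% in pericyte-like, 7.22% in surface epithelium-like and 2.56% in stroma-like cells. These shares depend on how much other collagen a class holds. In CPM, type IV chains summed to 1193 in pericyte-like, 911 in endothelial-like, 543 in stroma-like, 529 in granulosa-like and 322 in surface epithelium-like cells. After every cell was thinned to 1000 UMIs, a median of 5 collagen genes was detected per stroma-like cell, 4 per pericyte-like, 3 per surface epithelium-like, 2 per granulosa-like and 1 per endothelial-like cell.

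Of the 41 collagen genes, 38 had at least 20 UMIs in retained cells. The other 3 were COL10A1 with 3 UMIs, COL20A1 with 0 and COL25A1 with 15. Among the 38, 16 reached their highest level of the 5 somatic classes in stroma-like cells, where 14.8% of all genes did. Pericyte-like cells held the highest level of 11 genes (19.4% of all genes), surface epithelium-like cells of 8 (19.7%), granulosa-like cells of 2 (24% of all genes) and endothelial-like cells of 1 (22.1%). Of the 38 genes, 12 were too sparse to order by class, so their places in these counts are uncertain. They are COL7A1, COL8A2, COL9A2, COL24A1 and COL28A1 in the stroma-like count and COL4A6, COL8A1, COL11A2 and COL19A1 in the pericyte-like count. The others are COL17A1 and COL22A1 in the surface epithelium-like count and COL23A1, with 3 UMIs in endothelial-like cells. With 10 CPM added to each level, 13 collagen genes were at least 2-fold higher in stroma-like cells than in all other retained cells, as were 3.57% of all genes. The corresponding counts were 10 in pericyte-like cells (3.64% of all genes), 4 in surface epithelium-like cells (2.12%), 3 in granulosa-like cells (3.11%) and 2 in endothelial-like cells (5.5%). The pericyte-like count includes the sparse genes COL8A1 and COL11A2, with 7 and 6 UMIs in these cells.

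**Figure D2:**
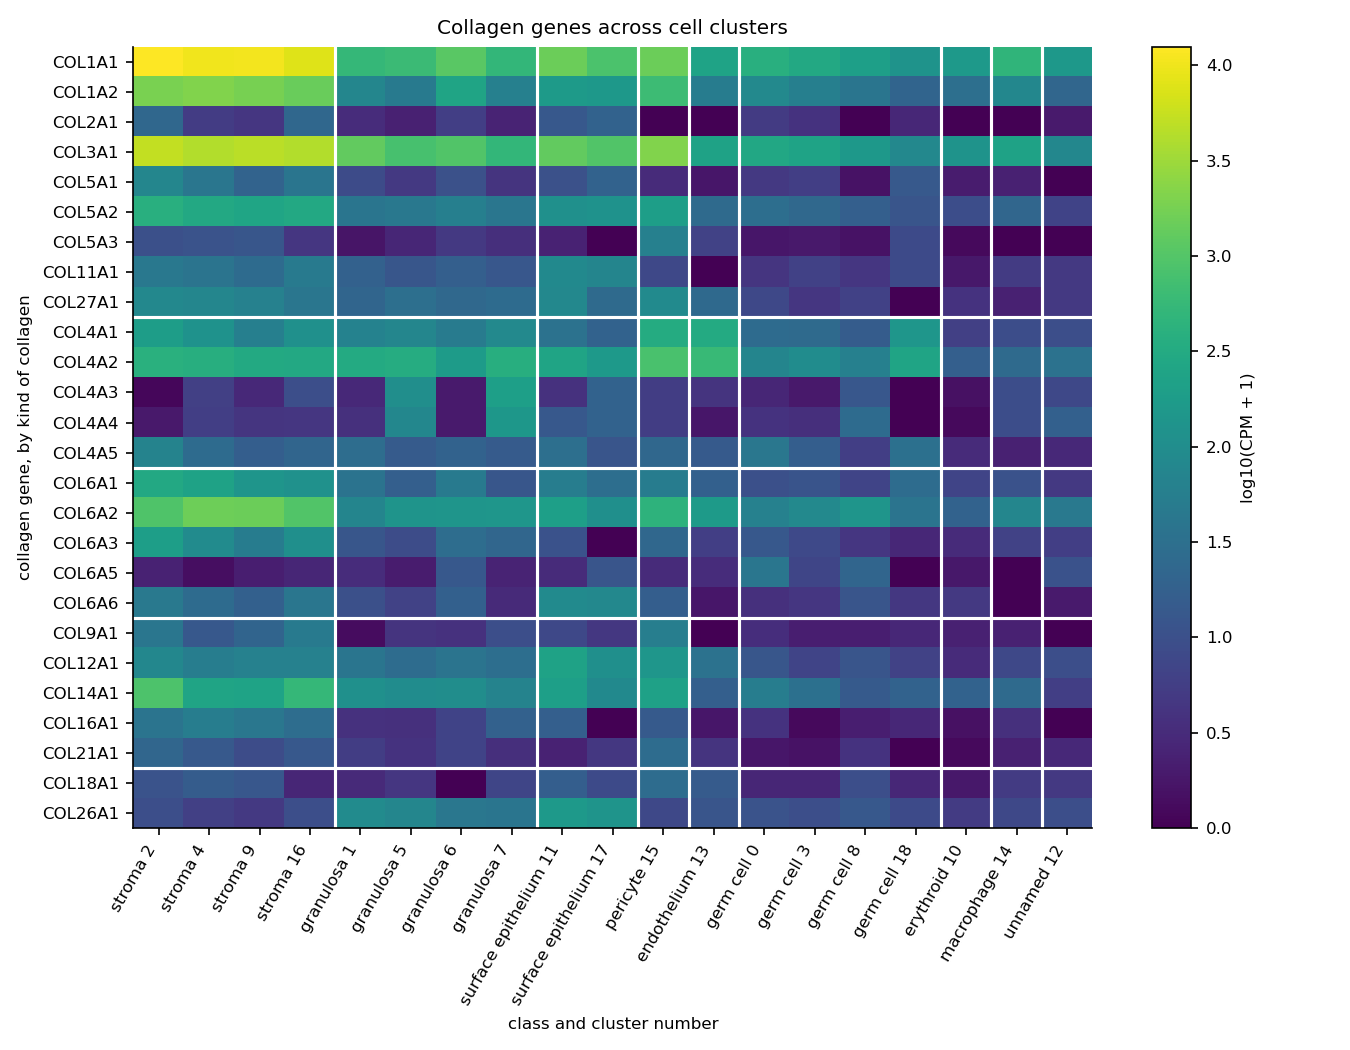
Level of the 26 collagen genes with at least 200 UMIs in retained cells, as log10(CPM + 1) in colour, with genes in rows by kind of collagen and the 19 clusters in columns by class. COL1A1 and COL3A1 are brightest in the stroma-like clusters, COL4A3 and COL4A4 stand out in granulosa-like clusters 5 and 7, and COL26A1 in surface epithelium-like and granulosa-like clusters.

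Among the fibrillar collagens, COL1A1 and COL1A2 encode the 2 chains of type I collagen, the main collagen of connective tissue. COL1A1 stood at 11129 CPM in stroma-like cells (12232 under ending 1 and 10438 under ending 2), 1526 in pericyte-like, 1433 in surface epithelium-like, 597 in granulosa-like and 239 in endothelial-like cells. The level in stroma-like cells was 7.29 times that in pericyte-like cells, the next class (6.76 to 7.88). COL1A2 followed with 1906 CPM in stroma-like and 648 in pericyte-like cells but only 71.9 in granulosa-like cells. There were 5.84 COL1A1 UMIs per COL1A2 UMI in stroma-like cells (5.76 to 5.91), 2.35 in pericyte-like cells (2.05 to 2.71) and 8.30 in granulosa-like cells (7.84 to 8.79). The gap between stroma-like and granulosa-like cells was present under ending 2, at 5.34 (5.26 to 5.43) and 11.8 (10.7 to 13), but not under ending 1, at 6.68 (6.55 to 6.82) and 6.52 (6.08 to 7.01). The pericyte-like ratio under ending 2 was 2.30. A single cell with 91747 UMIs, over the limit on genes, held 2109 UMIs of COL1A1, the most of any cell.

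Erythroid-like cells, which should not make collagen, were taken as a reference for background. In them 6 erythroid marker genes took 474829 CPM, which leaves less for other transcripts. After thinning, 13.4% of erythroid-like cells (10.8 to 16.3%; 36.2% unthinned, median 4059.5 UMIs) held a COL1A1 UMI, and 12.1% a COL3A1 UMI. Endothelial-like cells, at 12.2% for COL1A1 (8.61 to 16.5%; 28.7% unthinned, median 3451.5 UMIs) and 14.2% for COL3A1, had shares near these. Their level of COL1A1 was 239 CPM (213 to 268) against 158 in erythroid-like cells (145 to 171), and that of COL3A1 was 231 against 128. Whether endothelial-like cells express either gene was not tested, and no expression is read from them. Granulosa-like cells, at 35.6% for COL1A1 and 54.6% for COL3A1 (63.2% and 76.1% unthinned, median 3151 UMIs), were above the erythroid-like shares.

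COL3A1 encodes the chain of type III collagen, which forms fine reticular fibres. Its levels were 4747 CPM in stroma-like, 2059 in pericyte-like, 1276 in surface epithelium-like and 985 in granulosa-like cells, against 231 in endothelial-like and 128 in erythroid-like cells. In stroma-like cells COL1A1 exceeded COL3A1 2.34 times in UMIs, and it did so under both endings (2.34 and 2.35). In granulosa-like cells the ratio was 0.606 (0.502 and 0.784 under endings 1 and 2), and in erythroid-like cells it was 1.23. It was 0.741 in pericyte-like cells, and 1.63 and 0.745 under endings 1 and 2 in surface epithelium-like cells. The part of free RNA in these ratios was not tested. SOST-led cluster 1 had the lowest ratio of the 4 granulosa-like clusters, 0.410, with COL3A1 at 1277 CPM.

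Type V collagen sits inside type I fibrils and sets their diameter. COL5A1 reached 47.0 CPM in stroma-like cells, 4.64 times the level of surface epithelium-like cells (3.24 to 6.88), and COL5A2 reached 318 CPM, against 196 in pericyte-like and 114 in surface epithelium-like cells. COL5A3, a further type V chain, had another pattern, with 60.8 CPM in pericyte-like cells and 9.95 in stroma-like cells, a ratio of 6.11 (3.89 to 9.25). The pericyte-like class held 123 cells, of which 8 were from ending 1, so its values are in effect those of ending 2. The order of COL5A3 turned without an upper limit on genes and after integration, where LYPD1-led cells joined the pericyte-like name.

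COL11A1, a fibrillar chain related to type V, was highest in surface epithelium-like cells at 84.3 CPM (78.2 under ending 1 and 92.1 under ending 2), 2.32 times the stroma-like level of 36.4 (1.99 to 2.69). COL27A1 stood at 90.0 CPM in pericyte-like, 76.5 in surface epithelium-like and 72.6 in stroma-like cells, levels whose intervals overlap. Within ending 2, however, its pericyte-like level of 93.1 CPM was 1.94 times the surface epithelium-like level of 47.9 (1.27 to 2.93). COL2A1, the collagen of cartilage, was low in every class, with 13.1 CPM in surface epithelium-like and 11.6 in stroma-like cells. Within stroma-like cells it was 23.9 CPM under ending 1 and 3.85 under ending 2.

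Type VI collagen is built from COL6A1, COL6A2 and a longer chain such as COL6A3. All 3 were highest in stroma-like cells, at 224 CPM for COL6A1, 1285 for COL6A2 and 121 for COL6A3. The stroma-like level of COL6A1 was 4.32 times the next class (3.68 to 5.10), that of COL6A2 2.88 times (2.51 to 3.33) and that of COL6A3 5.37 times (2.91 to 11.2). Pericyte-like cells were the next class for COL6A3, and within ending 2, which holds nearly all of them, its levels were 74.0 and 23.3 CPM, a ratio of 3.18 (1.72 to 6.65).

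The other type VI chains were placed elsewhere. COL6A6 was highest in surface epithelium-like cells at 90.8 CPM (108 under ending 1 and 68.2 under ending 2), 2.92 times the stroma-like level of 31.1 (2.51 to 3.40). COL6A5, whose gene lies next to COL6A6 in the RefSeq annotation, was at most 2.94 CPM in any somatic class but 22.4 in germ cell-like cells. It reached 40.1 CPM in germ cell-like cluster 0, led by the meiotic genes SYCE3, RAD51AP2 and SYCP3, and 20.5 in cluster 8, led by the oocyte genes ASTL and PADI6, against 6.13 in cluster 3. Of thinned germ cell-like cells 2.21% held a COL6A5 UMI, compared with 0.156% of erythroid-like cells (4.27% and 0.409% unthinned).

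COL6A1 and COL6A2 differed between endings in opposite directions in stroma-like, granulosa-like, surface epithelium-like and germ cell-like cells. In stroma-like cells COL6A1 was 289 CPM under ending 1 and 184 under ending 2, while COL6A2 was 903 and 1525. The ratio of COL6A2 to COL6A1 UMIs was 3.12 and 8.29 in stroma-like cells, 2.19 and 9.10 in granulosa-like cells, 2.24 and 8.02 in surface epithelium-like cells and 4.72 and 28.7 in germ cell-like cells. In endothelial-like cells COL6A1 was 33.6 and 10.2 CPM, and COL6A2 was 199 and 158, a difference whose interval includes equality. The cause was not tested.

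Fibril-associated collagens bind to the surface of fibrils and link them to other matrix. COL14A1 was highest in stroma-like cells at 497 CPM, 2.23 times the pericyte-like level (1.83 to 2.75). Within ending 2, however, COL14A1 was 241 CPM in stroma-like and 221 in pericyte-like cells, a ratio of 1.09 whose interval includes equality (0.888 to 1.35). COL16A1 was highest in stroma-like cells at 42.8 CPM, 2.91 times the surface epithelium-like level (2.15 to 4.03). COL12A1 went with the surface epithelium, at 216 CPM (209 and 225 under endings 1 and 2), followed by 140 in pericyte-like and 64.6 in stroma-like cells. The first of these gaps turned at no more than 10% mitochondrial UMIs and within ending 1. COL9A1, known from cartilage and the eye, was 56.3 CPM in pericyte-like and 25.4 in stroma-like cells. This order turned without the upper limit, at a higher resolution and after integration, where LYPD1-led cells took the pericyte-like name. Without the upper limit COL9A1 was 86.5 CPM in the ACTA2-led pericyte-like cluster of 135 cells. It was 1.23 in the pericyte-like cluster of 809 cells led by CBLN2 and LYPD1, and 15.6 to 46.8 in stroma-like clusters. COL21A1 was 27 CPM in pericyte-like and 14.5 in stroma-like cells, with overlapping intervals.

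Among the remaining types, COL26A1 was described in developing testis and ovary. It stood at 154 CPM in surface epithelium-like and 77.6 in granulosa-like cells, a ratio of 1.98 (1.78 to 2.20), and at 6.09 in stroma-like, 6.75 in pericyte-like and 11.1 in endothelial-like cells. Within granulosa-like cells it was 93.6 CPM in cluster 1, 75.6 in cluster 5 and 38.1 in cluster 7. COL18A1, a basement membrane collagen that is the source of endostatin, was 27 CPM in pericyte-like, 15 in surface epithelium-like, 14.2 in endothelial-like and 11.8 in stroma-like cells, with intervals that overlap between the first 3.

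COL4A1 and COL4A2, the type IV chains found in nearly all basement membranes, were highest in the vessel-associated classes. COL4A1 stood at 331 CPM in pericyte-like and 321 in endothelial-like cells, a ratio of 1.03 (0.847 to 1.25), then 130 in stroma-like, 70.8 in granulosa-like and 33.0 in surface epithelium-like cells. These pooled values mix unequal shares of the endings. Within ending 2, COL4A1 was 331 CPM in pericyte-like and 217 in endothelial-like cells, a ratio of 1.52 (1.22 to 1.90). COL4A2 was 824 CPM in pericyte-like, 570 in endothelial-like, 364 in stroma-like, 325 in granulosa-like and 240 in surface epithelium-like cells, and the order of the first pair turned in the settings that moved LYPD1-led cells into the pericyte-like name. Granulosa-like cells held 4.59 COL4A2 UMIs per COL4A1 UMI, compared with 1.78 in endothelial-like cells. By ending the granulosa-like ratio was 4.62 and 4.57 and the endothelial-like ratio 1.08 and 2.57. Across the 19 clusters the levels of these neighbouring genes had a Pearson correlation of 0.916, given as a description over clusters that share 2 libraries.

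COL4A1 also marked a small germ cell group. Cluster 18, 81 cells from ending 1 led by GIP, NANOG and DPPA4, had 142 CPM of COL4A1 and 248 of COL4A2, compared with 14.6 to 25.9 and 60.4 to 98.7 in the other germ cell-like clusters.

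COL4A3 and COL4A4, chains of the mature basement membrane best known from kidney, overlap in the RefSeq annotation, and how reads in the overlap were assigned was not tested. They were the only 2 of 38 collagen genes highest in granulosa-like cells. COL4A3 stood at 63.3 CPM in granulosa-like cells and at most 4.50 in the other somatic classes. COL4A4 stood at 47.1, and at 12.7 in surface epithelium-like cells. Under ending 1 COL4A4 was 2.46 CPM in granulosa-like and 2.32 in surface epithelium-like cells, so its difference between classes rests on ending 2. Cluster 7 was highest with 204 and 144 CPM, followed by cluster 5 with 103 and 77.5, while clusters 1 and 6 had 1.96 or less of COL4A3 and 2.69 or less of COL4A4. After thinning, 6.66% of granulosa-like cells (5.93 to 7.44%; 14.1% unthinned) and 0.156% of erythroid-like cells held a COL4A3 UMI. The number of COL4A3 UMIs per COL4A4 UMI was close, 1.42 in cluster 7 (1.21 to 1.66) and 1.33 in cluster 5 (1.19 to 1.48). With no more than 10% mitochondrial UMIs, the order of both genes against the next class turned. That setting left 1048 granulosa-like cells and 843 unnamed cells, against 5287 and 410 in the main setting. How many granulosa-like cells were removed and how many lost the name was not counted. The order of COL4A3 also turned where LYPD1-led cells were named pericyte-like.

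Between granulosa-like clusters, 2 of 29 collagen genes, COL4A3 and COL4A4, were at least 2-fold higher in cluster 5 than in cluster 1 (1.89% of all genes) and 0 were lower (2%). Cluster 7 had 3 of 27 higher than cluster 1 (2.22% of all genes), adding COL16A1 at 17.5 against 2.81 CPM, and 3 lower (10.6%), namely COL3A1, COL6A1 and COL26A1. Of 24 genes, COL16A1 alone was lower in cluster 5 than in cluster 7 (0.716% of all genes) and 0 were higher (5.6%).

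**Figure D3:**
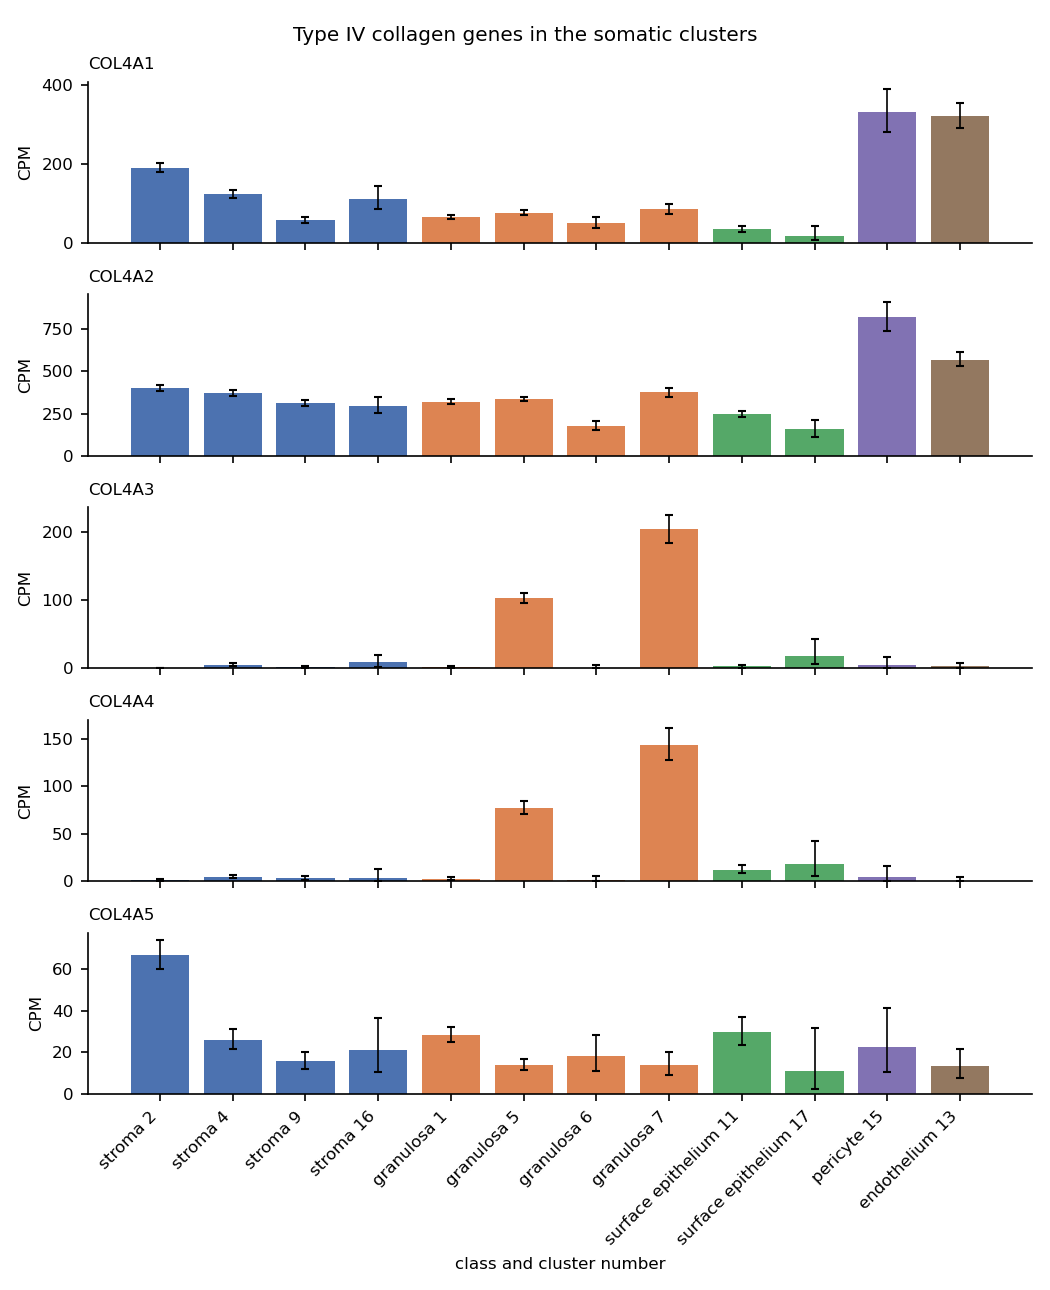
CPM of 5 type IV collagen genes in the 12 somatic clusters, with bars coloured by class and exact 95% intervals for counting error. COL4A1 and COL4A2 are highest in the pericyte-like and endothelial-like clusters, and COL4A3 and COL4A4 are high only in granulosa-like clusters 5 and 7, at 103 and 204 CPM for COL4A3.

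Detection of the 2 chains in single cells was also counted. In thinned cells of cluster 7, 19.5% of cells with a COL4A3 UMI held one of COL4A4 (13.6 to 26.5%), compared with 11.8% of cells without one (9.55 to 14.3%). In cluster 5 the shares were 13% (7.62 to 20.3%) and 6.50% (5.20 to 8.02%). In both clusters the share was higher among cells with a COL4A3 UMI, and the intervals of the shares overlap. Such overlap does not show that the shares are equal, and their ratio was not tested.

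The barcode ending separated COL4A3 and COL4A4 almost completely. In granulosa-like cells COL4A3 was 1.82 CPM under ending 1 and 126 under ending 2, 69.1 times higher (43.0 to 119), and COL4A4 was 2.46 and 92.5, 37.6 times higher (24.9 to 59.7). These were the only 2 of 30 collagen genes at least 2-fold higher under ending 2 in this class, where 1.83% of all genes were. None was at least 2-fold lower (2.63% of all genes). In surface epithelium-like cells COL4A3 had 0 UMIs under ending 1, which allows up to 1.74 CPM, and 9.74 CPM under ending 2, and COL4A4 had 2.32 and 26.2 CPM. The erythroid-like cells, which should lack both, had 0 and 2.27 CPM of COL4A3.

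After integration of the endings by reciprocal PCA, SOST-led and KITLG-led granulosa-like clusters contained cells of both endings. COL4A3 and COL4A4 also differed between endings within them. Before integration, however, granulosa-like clusters 1 and 6 held only 24 and 31 cells of ending 2. Most ending 2 cells of the integrated clusters therefore came from other clusters, so subgroup and ending are not separated here. In the SOST-led cluster COL4A3 was 1.38 CPM in 865 cells of ending 1 and 38.5 in 376 cells of ending 2, a ratio of 27.8 (11.4 to 87.9). In the cluster led by EGR4 and KITLG it was 1.89 CPM in 854 cells and 85.3 in 285 cells, a ratio of 45 (22.1 to 107). COL4A4 followed with ratios of 17.4 and 30.2. In both clusters COL4A1 moved the other way, from 69.5 to 29.5 CPM and from 57.6 to 22.1 CPM. By the 2-fold rule 2 of 20 collagen genes were higher under ending 2 in the first cluster (1.36% of all genes) and 2 lower (2.28%), and 4 of 19 were higher in the second (2.12%) and 1 lower (2.86%).

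COL4A5, a chain that joins COL4A3 and COL4A4 in one network, was not restricted to granulosa-like cells. Its level was 38.0 CPM in stroma-like, 28.1 in surface epithelium-like, 24.9 in germ cell-like, 22.5 in pericyte-like, 20.6 in granulosa-like and 13.4 in endothelial-like cells. Opposite to its partners, it was higher under ending 1, at 64.5 against 21.5 CPM in stroma-like cells and 27.5 against 13.7 in granulosa-like cells. COL4A6, a related type IV chain, had 163 UMIs in retained cells and at most 6.75 CPM in a somatic class.

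The stroma-like subgroups shared their main collagens and differed in a few others. COL1A1 was 12477 CPM in POSTN-led cluster 2, 10333 in WFDC1-led cluster 4 and 10720.5 in GBP1-led cluster 9, and COL3A1 was 5303, 4180 and 4734. In the small cycling cluster 16 of 111 cells they were 7782 and 4233. Of 31 collagen genes, 5 were at least 2-fold higher in cluster 2 than in cluster 4 (1.62% of all genes), namely COL2A1, COL4A5, COL6A3, COL9A1 and COL14A1, and 0 were lower (1.25%). COL14A1 was at 907 CPM in cluster 2, 247 in cluster 4 and 236 in cluster 9. Of 29 collagen genes, 8 were higher in cluster 2 than in cluster 9 (1.63% of all genes) and 0 lower (1.7%), and clusters 4 and 9 differed by 2-fold in none of 30 (0.0642% higher and 1.4% lower among all genes).

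After integration, subgroups could be compared within each ending. The integrated stroma-like cluster led by MGP, RSPO3 and LUM had more type I and III transcripts than the one led by C7 and CLDN11 under both endings. COL1A1 was 18094 against 11047 CPM under ending 1 (1.64 times, 1.61 to 1.67) and 19771 against 10323 under ending 2 (1.92 times, 1.88 to 1.95). COL3A1 was 8376 against 4476 CPM (1.87 times) and 10045 against 4292 (2.34 times). COL14A1 was 1956 against 671 CPM (2.91 times, 2.74 to 3.10) and 553 against 244 (2.27 times, 2.03 to 2.53), and so followed both subgroup and ending.

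Under ending 1 COL2A1 was 32.3 CPM in the C7-led integrated cluster and had 0 UMIs in the MGP-led one, which allows up to 2.56 CPM. COL9A1 was 49.5 and 9.37 CPM under ending 1 but 14.6 and 37.4 under ending 2, so its order turned with the ending. COL4A1 was likewise 256 and 66.5 CPM under ending 1, but 132 and 108 under ending 2, where the interval of the ratio includes 1. Under ending 1 the MGP-led cluster had 2 of 23 collagen genes at least 2-fold higher than the C7-led one (1.81% of all genes) and 3 lower (0.926%). Under ending 2 it had 2 of 23 higher (2.43%) and 0 lower (0.78%).

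**Figure D4:**
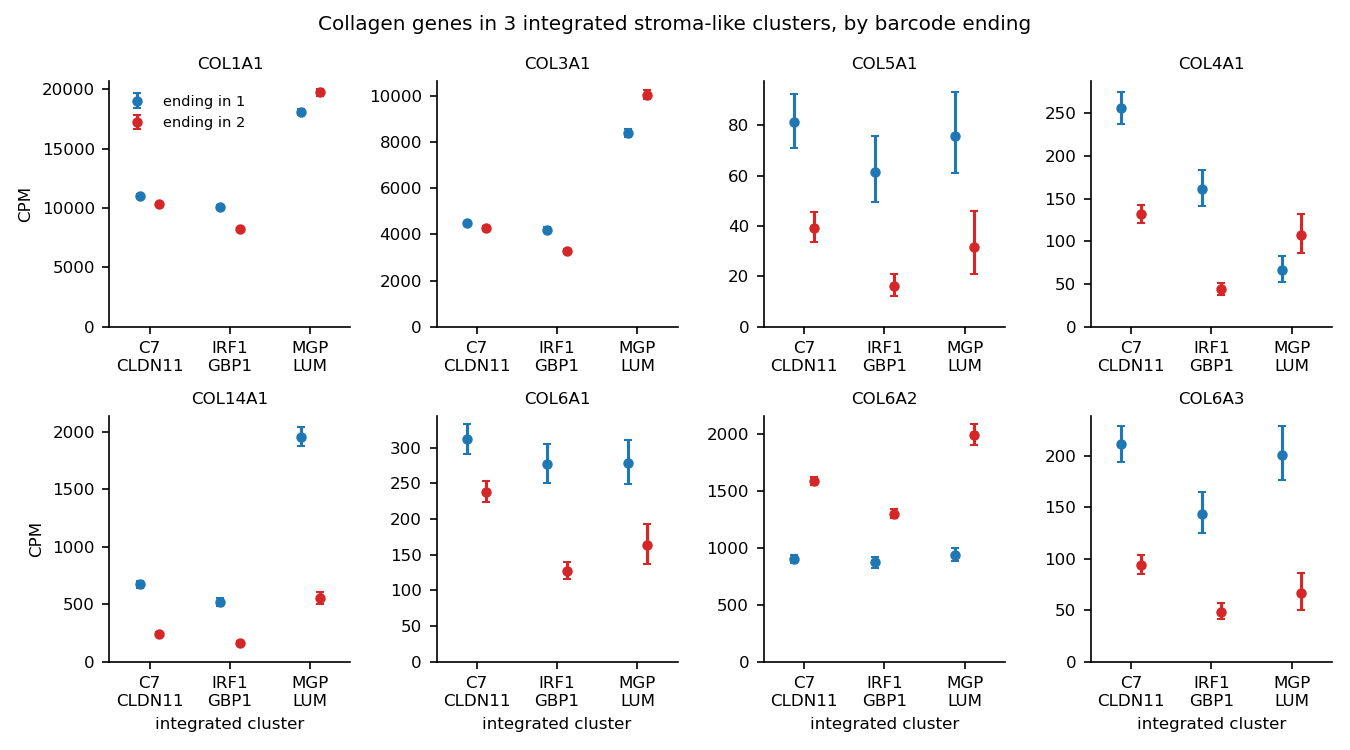
CPM of 8 collagen genes in the 3 integrated stroma-like clusters named by leading genes, with barcodes ending in 1 in blue and in 2 in red and exact 95% intervals for counting error. COL1A1 and COL3A1 are highest in the MGP and LUM cluster under both endings, COL14A1 and COL6A3 are higher under ending 1 in all 3 clusters, and COL6A2 is higher under ending 2 in all 3.

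Between endings within integrated stroma-like clusters, COL6A3 and COL14A1 were the 2 collagen genes at least 2-fold higher under ending 1 in all 3. The share of all genes that were so in all 3 was not counted, so this overlap is a description only. Before integration, 1704 of the 1776 stroma-like cells of ending 1 were in cluster 2. This contrast therefore overlaps with that of cluster 2 against clusters 4 and 9. COL6A3 was 211 against 94.1 CPM in the C7-led cluster, 144 against 48.5 in the IRF1-led cluster and 201 against 66.6 in the MGP-led cluster. COL14A1 ratios were 2.75 (2.55 to 2.97), 3.21 (2.87 to 3.60) and 3.54 (3.20 to 3.91). In these clusters 4 of 24, 9 of 23 and 4 of 20 collagen genes were higher under ending 1, where 1.21%, 2.17% and 3.55% of all genes were, and 0, 0 and 2 were lower (1.24%, 1.93% and 2.74%). COL14A1 was also higher under ending 1 in surface epithelium-like cells, at 276 against 80.2 CPM, and in erythroid-like cells, at 22.5 against 5.68. All collagens together were 476 CPM under ending 1 and 216 under ending 2 in erythroid-like cells, and the part of such transcripts in the differences of the other classes was not tested.

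Over whole classes, 5 of 32 collagen genes were at least 2-fold lower under ending 2 in stroma-like cells (1.26% of all genes) and 0 were higher (1.19%), namely COL2A1, COL4A5, COL5A1, COL6A3 and COL14A1. In surface epithelium-like cells COL4A1, COL4A5 and COL14A1 were lower, 3 of 23 (2.24% of all genes), and COL4A4 was higher (1.61%). In endothelial-like cells COL1A1, COL4A1 and COL6A1 were lower, 3 of 11 (2.45% of all genes), and 0 were higher (4.78%). COL1A1 in these cells was 377 CPM under ending 1 and 178 under ending 2. In erythroid-like cells, the reference for background, it was 185 and 70.4, so the endothelial-like difference is not read as one of expression. Endothelial COL4A1 was 558 CPM under ending 1 and 217 under ending 2, while COL4A2 was 601 and 557.

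**Figure D5:**
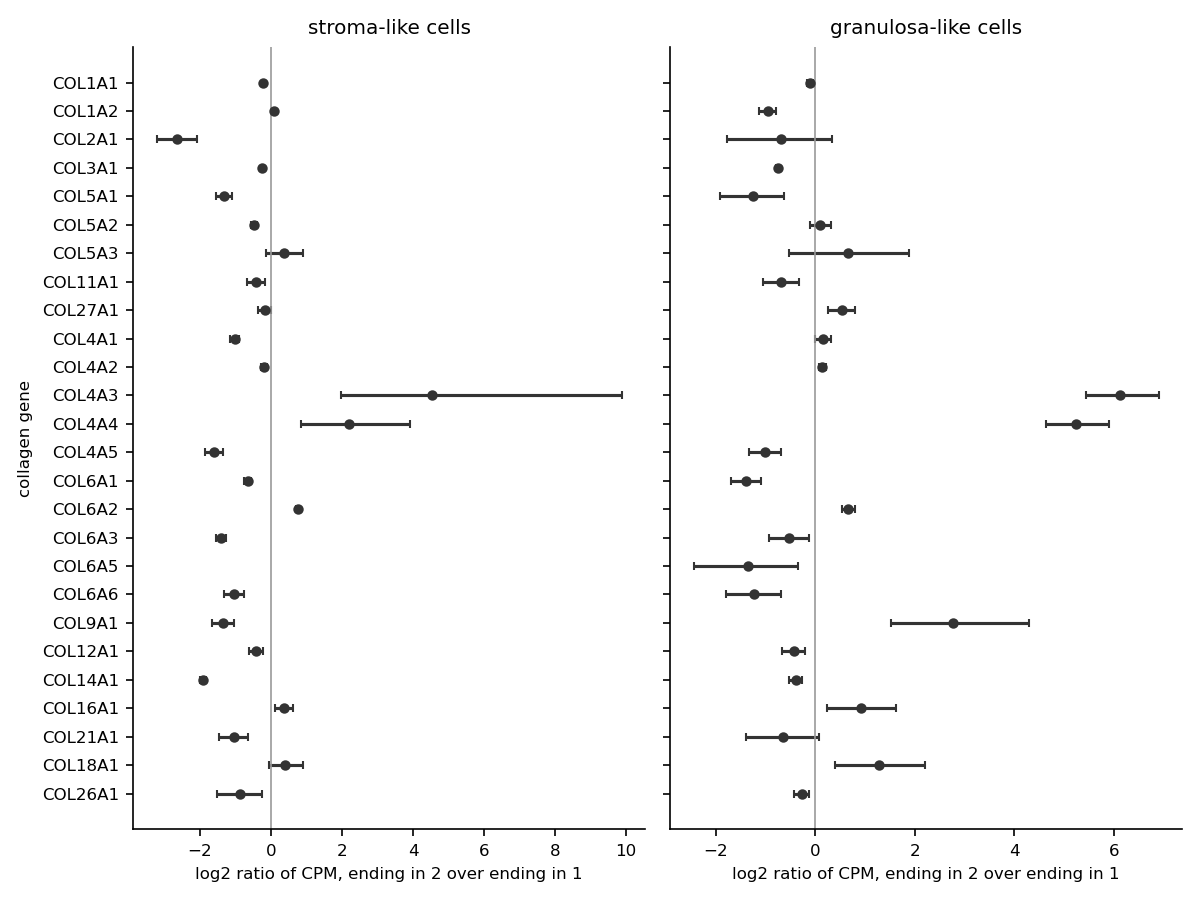
Log2 ratio of CPM between barcodes ending in 2 and in 1 for each collagen gene with enough UMIs, in stroma-like cells on the left and granulosa-like cells on the right, with exact 95% intervals for counting error and a line at 0. COL14A1 lies left of 0 in stroma-like cells, COL6A2 lies right of 0 in both classes, and COL4A3 and COL4A4 lie far to the right in granulosa-like cells.

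The 12 collagen genes with 20 to fewer than 200 UMIs in retained cells were too sparse to order by class. COL9A2 was 9.27 CPM in stroma-like, 1.89 in granulosa-like and 1.63 in surface epithelium-like cells. It had 0 UMIs in pericyte-like and endothelial-like cells, which allows up to 6.75 and 2.37 CPM. COL7A1 was 3.38 in stroma-like cells, and COL8A1 and COL11A2 were 15.8 and 13.5 in pericyte-like cells, from a few UMIs each.

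Genes that act on collagens were counted from 5 lists. Of 18 genes for folding and modification in the endoplasmic reticulum, 4 were at least 2-fold higher in stroma-like cells than in all other retained cells (3.57% of all genes) and 0 lower (3.54%), with SERPINH1, the collagen chaperone, at 803 CPM in stroma-like, 799 in pericyte-like and 419 in granulosa-like cells. P4HA2, a subunit of the enzyme that hydroxylates proline, was instead 198 CPM in surface epithelium-like, 269 in germ cell-like and 93.6 in stroma-like cells. Of 14 genes for propeptide cleavage and cross-linking, 5 were higher in stroma-like cells (3.57% of all genes), with the procollagen proteinase enhancer PCOLCE at 144 CPM against 9.81 in granulosa-like cells and lysyl oxidase LOX at 47.7 against 3.56. LOXL2, which cross-links type IV collagen, was 76.5 CPM in endothelial-like cells, and LOXL4 was 32.3 in surface epithelium-like cells.

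Of 8 fibril-associated proteoglycans, 6 were higher in stroma-like cells (3.57% of all genes), among them DCN at 3716 CPM and LUM at 404, while BGN was highest in pericyte-like cells at 691 and PRELP in granulosa-like cells at 126. Of 14 tested basement membrane genes, 3 were higher (3.11% of all genes) and 3 lower (2.89%) in granulosa-like cells, with the laminin chains LAMA1 at 29.1 CPM and LAMB1 at 305 there and the linker NID1 at 15.1, against 155 CPM of NID1 in stroma-like cells. Of 8 tested collagen receptor genes, 1 was higher in stroma-like cells (3.57% of all genes) and 1 lower (3.54%). The higher one was DDR2, which binds fibrillar collagen, at 74.0 CPM. DDR1 was 59.2 in granulosa-like and 66.3 in surface epithelium-like cells, and ITGA1 was 187 in pericyte-like cells. ITGA2 was 263 CPM in endothelial-like, 129 in granulosa-like and 25.3 in stroma-like cells.

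With collagen genes left out, the genes whose levels over the 19 clusters were most like those of COL1A1, by Pearson correlation, were LTBP4 (0.966), TCF21 (0.962), SSPN (0.960) and SSC5D (0.960). For COL4A1 they were RAI14 (0.915), TNS2 (0.906), ANGPT2 (0.880) and ECE1 (0.877), and for COL4A3 they were LIPH (0.931), FSHR (0.929), PPP1R14C (0.924), CBLN2 (0.920) and NDP (0.916). Among collagen genes the correlation was 0.976 between COL1A1 and COL1A2, 0.916 between COL4A1 and COL4A2 and 0.952 between COL4A3 and COL4A4. A gene listed by identifier only was left out for COL1A1 and for COL4A1. The clusters share 2 libraries, so these values are descriptions.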

How the data were processed

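The authors deposited raw UMI counts per gene and cell, made with Cell Ranger 3.0.2 and Seurat according to the submitters' processing notes and the paper's methods, with reads aligned to the Macaca_fascicularis_5.0 genome. No per-sample column was left unused (0). Cells with 200 to 3000 genes were retained, as the study did, which leaves more cells than the study kept. Clusters came from Seurat 5.3.0 under R 4.3.3 with 2000 variable genes, 18 components, 20 neighbours and resolution 0.6. A class name needed 3 markers, each 1.5-fold higher and in 5% of cells. Levels are summed UMIs as CPM. They are not scaled by gene length. Ratios, sums and shares over several genes therefore describe UMI counts, and serve to compare groups. A count of 0 is given with the level of 3 counts as its limit. A gene counted as higher or lower when past 2-fold with 10 CPM added, among genes with 20 UMIs in the cells compared. Genes with 200 UMIs were described by class, other genes only from 5 lists, the leading genes of clusters and the 5 genes most alike in pattern. Members and lists were chosen with earlier results of these data known. With 1 library per stage, no test between groups was made. Doublets stayed in, since Scrublet called 0, and dropping the top-scoring 8% was an alternative. Free RNA was not corrected. In simulated stroma-like and granulosa-like counts of 9625 genes, drawn with counting error alone, 95.3% of intervals held the true ratio. The simulation had no variation between cells, libraries or animals, so it checks the calculation only. All 41 genes matched the RefSeq table by symbol, which was used for names and neighbours only. COL9A3, COL13A1 and COL15A1 were not among the 41 genes that the rule found. Versions were matplotlib 3.10.9, scanpy 1.11.5, pandas 2.3.3, scipy 1.17.1 and numpy 2.4.6 under Python 3.11.15.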

Additional observations from a re-analysis of the deposited data

Results flagged for a closer look

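The 4675 cells over 3000 genes took no part in the comparisons, and they held 64.2% of all UMIs. Of the 26 collagen genes with at least 200 UMIs in retained cells, 4 had over 70% of their UMIs there, as had 6 sparser ones not described. The share of all genes past 70% was not counted, so no excess among collagen genes is read from this. COL4A3 stood at 32.4 CPM there (31.3 to 33.6) and 24 in retained cells, with 70.8% of its UMIs in the larger cells, and COL4A4 at 29.5 CPM (28.4 to 30.6) and 19.7. COL26A1 stood at 53.8 CPM (52.4 to 55.3) and 40.2, and COL6A5 at 7.64 CPM (7.09 to 8.21) and 5.67. When all cells were clustered together, COL4A3 was highest, at 212 CPM, in a cluster of 809 cells led by CBLN2 and LYPD1, and COL6A5 at 65.7 CPM in a germ cell-like cluster of 380 cells led by RAD51AP2 and SYCP1, 295 of them over the limit. COL4A4, unlike COL4A3, was also present in a cluster of 143 cells led by PADI6 and ZAR1, at 62.9 CPM against 3.91 for COL4A3. No outlier among samples could be sought with 1 library per stage.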

How the results depend on the processing

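No paired analysis was possible because the labels give 1 library per stage and no result came from a test. The collagen ratio, the counts by class and the ratio of the 2 highest classes of each of 26 genes were recomputed, under up to 15 settings for the counts and ratio and up to 14 for single genes, of which 2 were chosen after seeing the data: leaving out clusters 16 and 17, led by mitotic genes, and leaving out cluster 7, with over 40% mitochondrial UMIs. The log2 ratio of summed collagen CPM between stroma-like and granulosa-like cells kept its direction in every setting. It was 2.99, with 2.96 without an upper limit on genes, 3.03 at no more than 10% mitochondrial UMIs, 2.97 at resolution 0.4, 2.95 with 30 components, 3.03 with collagens among the variable genes, 3.09 without the highest Scrublet scores, 3.02 and 3.01 within endings 1 and 2, 3.07 thinned, 2.94 as a mean of single cells and 2.98 without cluster 7. The number of collagen genes highest in stroma-like cells stayed between 14 and 22. The 3 genes 2-fold higher in granulosa-like cells became 1 without an upper limit, at 10% mitochondrial UMIs and in ending 1. The 10 in pericyte-like cells became 2 without an upper limit, 6 at 10% mitochondrial UMIs, and 3 at resolution 1.0 and after integration. In the settings with no limit, resolution 1.0 and integration a cluster led by LYPD1 and CBLN2 took the pericyte-like name, with 944, 563 and 609 cells named so. The 2 genes in endothelial-like cells became 1 in ending 2 and when thinned.

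Comparisons between clusters, endings, gene pairs and lists were not. Of 359 single-gene values 41 had the other sign: 26 belong to genes whose reported interval includes equality, and 15 to 6 genes whose interval does not. COL4A2, pericyte-like over endothelial-like, was -0.72 without an upper limit, -0.39 at resolution 1.0 and -0.40 after integration. COL4A3, granulosa-like over pericyte-like, was -2.17, -1.72 and -1.66 in these settings and -1.26 at 10% mitochondrial UMIs. COL9A1, pericyte-like over stroma-like, was -1.95, -1.25 and -1.43, and COL5A3 was -0.58 without the limit and -0.40 after integration. COL4A4, granulosa-like over surface epithelium-like, was -0.46 at 10% mitochondrial UMIs, which left 1048 granulosa-like cells, and COL12A1, surface epithelium-like over pericyte-like, was -0.031 there and -0.36 in ending 1. Pericyte-like values rest on 123 cells, and a count of 0 there allows up to 6.75 CPM.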
